A study of Homo sapiens with 2 samples.

Results

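The AP-1 and EGR immediate early genes are 10 transcription factor genes, chosen by symbol from the deposited table: FOS, FOSB, FOSL1, FOSL2, JUN, JUNB, JUND, EGR1, EGR2 and EGR3. All 10 were found, each on 1 row, among 56255 gene symbols. They were compared between wild-type A549 cells with no treatment (WT) and A549 cells overexpressing MYOCD (MYOCD), with 1 library in each group. A549, an established cell line from a human lung adenocarcinoma, was grown in DMEM with serum. MYOCD encodes myocardin, which binds SRF and raises its activity in smooth and heart muscle. The sources used here do not say how MYOCD was expressed, whether the cells were a clone or a pool, or whether an empty vector was used. With 1 library in each group no value has a replicate error, no test was possible, and every difference below is one between 2 libraries.

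Immediate early genes are switched on within minutes of a growth factor, serum or stress signal without new protein synthesis. Proteins of the FOS and JUN families pair through leucine zippers to form AP-1, which binds DNA at TGANTCA. FOS proteins cannot pair with themselves and need a JUN partner, while JUN proteins also pair with one another. FOSL1 and FOSL2 encode Fra-1 and Fra-2, members that lack the strong activation domain of FOS and FOSB and are often induced later and for longer. EGR proteins are zinc finger factors that bind GC-rich sites and are held in check by the corepressors NAB1 and NAB2. Many of these genes carry CArG boxes, the sites bound by SRF, which works there with ternary complex factors such as ELK1 downstream of MAP kinases or with the myocardin family.

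Promoter letters are shown first because SRF is the partner of the overexpressed protein and because 6 of the members share a second element. RefSeq windows on GRCh38.p14 were available for 8 of the 10 genes (FOSL1 and EGR3 had none), in 10 windows, and the 250 bases before each start were searched on both strands. EGR2 had 3 of these windows, each with its own start, and its matches all lay in 1 of them. The CArG box (CC, then 6 bases of A or T, then GG) was found in EGR1 and EGR2, or 2 of the 10 windows, against 1.16% of all 35116 windows of the same length. The letters TGACGT, the core of the cyclic AMP response element, were found in FOS, FOSB, FOSL2, JUND, EGR1 and EGR2, or 6 of the 10 windows, against 7.1% of all windows. The full element TGACGTCA, which holds TGACGT on both strands, was found in JUND and in 1.65% of all windows. The planned search listed the full element, and TGACGT alone and TATAAA (below) were added to it. In the sequences below, printed 5′ to 3′ on the strand of the gene, capitals mark CArG boxes and TGACGT on either strand.
EGR1, chr5:138465339-138465478, plus strand: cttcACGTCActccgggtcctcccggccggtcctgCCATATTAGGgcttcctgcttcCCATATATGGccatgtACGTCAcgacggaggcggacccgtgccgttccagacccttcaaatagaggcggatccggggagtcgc
EGR2, chr10:62816367-62816466, minus strand: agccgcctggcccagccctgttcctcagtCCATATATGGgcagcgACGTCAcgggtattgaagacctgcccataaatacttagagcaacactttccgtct
FOS, chr14:75278728-75278773, plus strand: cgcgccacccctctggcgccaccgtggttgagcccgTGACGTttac
FOSB, chr19:45467896-45467994, plus strand: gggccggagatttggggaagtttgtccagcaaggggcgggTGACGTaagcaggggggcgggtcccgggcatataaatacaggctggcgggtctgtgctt
FOSL2, chr2:28392758-28392801, plus strand: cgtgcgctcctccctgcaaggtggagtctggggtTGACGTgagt
JUND, chr19:18281692-18281832, minus strand: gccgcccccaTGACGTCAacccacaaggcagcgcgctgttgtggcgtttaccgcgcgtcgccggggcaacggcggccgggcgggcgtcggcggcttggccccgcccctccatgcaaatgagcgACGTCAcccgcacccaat

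In EGR1 the 2 CArG boxes began 105 and 83 bases before the start, and in EGR2 the box began 71 bases before it. The CArG box nearer the EGR1 start and the one of EGR2 have the same letters, CCATATATGG. The stretch with TGACGT on either strand began 64 bases before the start in FOS, 60 in FOSB, 66 in FOSL2 and 55 in EGR2. EGR1 had copies 136 and 67 bases before the start, and those of JUND began 200, 198 and 87 bases before it, the first pair being the overlapping strands of TGACGTCA. TATAAA was found in FOS, FOSB and JUNB and in 10.7% of all windows, CCGGAA (an ETS factor core) in FOSB and in 14.5%, and GCGNGGGCG (the EGR site) in EGR1 and in 8.41%. The AP-1 letters TGANTCA were found in 0 of the members' windows and in 6.57% of all windows. For JUN this absence concerns exon sequence, since its searched bases did not reach upstream of the gene. A match describes the sequence and is no evidence of binding, and sites farther from the start lay outside the windows.

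Levels are given in RPKM, reads scaled to gene length and to library size, so that genes can be compared with one another. The low values of the table stack up near the worth of 1 read. From this stacking the libraries were estimated at about 17200000 reads in WT (14000000 to 21600000 across the width of the stack) and 15100000 in MYOCD (11800000 to 18400000). Whole reads were not recovered, so read numbers below are rough equivalents, given with the range across the width of the stack for FOS only. MYOCD itself measured 0.304 RPKM in the WT library and 48.6 RPKM in the MYOCD library, the direction of the labels. All 6 epithelial markers passed 1 RPKM, with 4 above 0 and 2 below 0 in log2 change. The keratin genes KRT8 and KRT18 measured 1523 and 1647 RPKM in WT and 1059 and 1134 RPKM in MYOCD, KRT7 went from 996 to 1386, and the adhesion gene EPCAM, the 1 higher by 2-fold, from 0.889 to 2.57. Of 8 alveolar type 2 markers only the lipid transporter gene ABCA3 passed 1 RPKM and SFTPC was listed at 0 in both. The summed RPKM of other cell types' markers was 5.75 in WT and 16.2 in MYOCD for 9 fibroblast genes, of which COL1A1 made up 3.05 and 14.3, with DCN and FAP listed at 0 in both. Of the 2 fibroblast genes that passed 1 RPKM, COL1A1 was higher and THY1 (1.91 and 0.959) lower. For 7 endothelial genes the sum was 1.70 and 3.72, of which ESAM made up 1.40 and 3.50, with CDH5, VWF, KDR and TEK at 0 in both. ESAM was the 1 endothelial gene that passed 1 RPKM, and CLDN5 (0.290 and 0.0868) was lower. For 8 blood cell genes the sum was 22.3 and 27.9, of which CD68 made up 18.3 and 25.1, with PTPRC and CD3E at 0 in both. CD14 (2.31 and 1.17) and ITGAM (1.47 and 1.05) were lower. For 6 smooth muscle genes the sum was 23.9 and 35.7. Of these SMTN made up 12.1 and 18.2, TAGLN 2.34 and 6.93 and ACTA2 8.28 and 8.97, and CNN1 stood at 0.355 and 0.328. The part of these markers in the differences below was not tested.

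FOS had the log2 change of largest size among the 10 members and was the 1 member lower by more than 2-fold. It lies on the plus strand of chromosome 14, 75278774 to 75282230 (GENCODE 29, GRCh38), and its level was 4.67 RPKM in WT against 1.02 RPKM in MYOCD. These levels correspond to roughly 260 reads (212 to 326 across the width of the stack) in WT and 50 (38.8 to 60.7) in MYOCD over its 3238 nt of exons. The WT level was 4.58 times the MYOCD level. The log2 change, computed with 0.5 RPKM added to each value so that low values do not give extreme ratios, was -1.77. Of 12337 protein-coding genes with at least 1 RPKM in a library, 0.478% had a more negative change. In bulk RNA, fewer cells with FOS and less FOS RNA per cell cannot be told apart, here and for every gene below.

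FOSB, the closest relative of FOS, went the other way from a lower level. It lies on the plus strand of chromosome 19, 45467995 to 45475179, and its level was 0.446 RPKM in WT against 1.19 RPKM in MYOCD, roughly 42.6 and 100.3 reads. The deposited values differed 2.67-fold, but the log2 change was 0.84, since the 0.5 RPKM added exceeds the WT value itself. FOSB passed the minimum of 1 RPKM in the MYOCD library alone. In WT the level of FOS was 10.5 times that of FOSB, and in MYOCD FOSB was 1.17 times FOS.

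The Fra genes FOSL1 and FOSL2 held nearly all of the FOS family's RPKM. FOSL2 (chromosome 2, 28392448 to 28417312, plus strand) measured 30.3 RPKM in WT against 58.6 RPKM in MYOCD, a log2 change of 0.94 that 3.48% of the protein-coding genes exceeded. FOSL1 (chromosome 11, 65892049 to 65900573, minus strand) stood at 38.1 and 41.5 RPKM, a log2 change of 0.12 that 36.5% of them exceeded. FOSL1 was the most abundant of the 10 members in WT and FOSL2 in MYOCD.

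**Figure D1:**
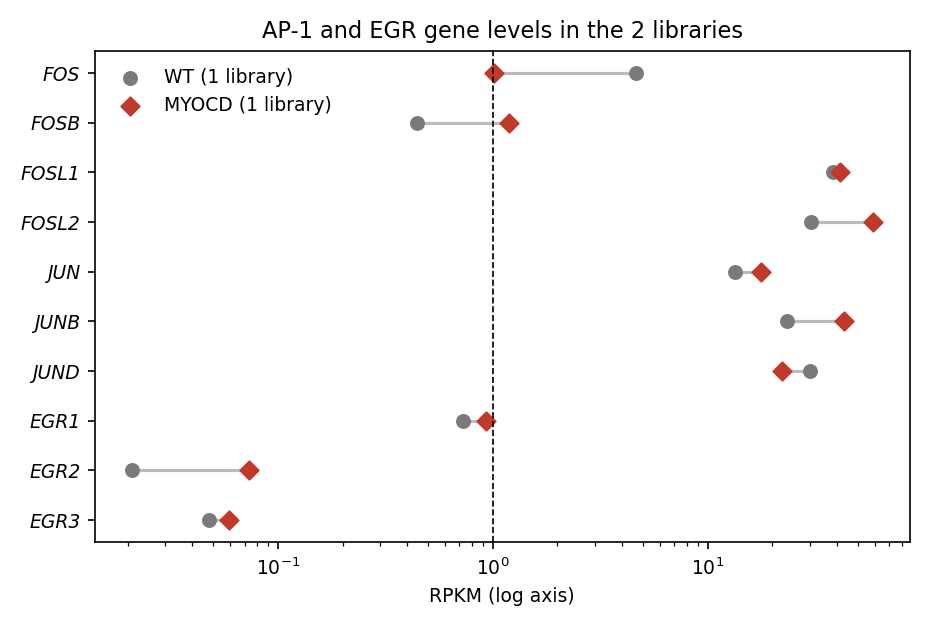
Levels of the 10 AP-1 and EGR genes in RPKM on a log axis, with a circle for the WT library and a diamond for the MYOCD library; the dashed line marks 1 RPKM. FOS lies at 4.67 in WT and 1.02 in MYOCD, FOSL2 and JUNB lie to the right in MYOCD, and the 3 EGR genes lie below 1 RPKM in both libraries.

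Among the JUN genes, JUNB stood higher and JUND lower in MYOCD. JUNB, whose protein is a weaker activator than JUN in many settings, lies on the plus strand of chromosome 19, 12791496 to 12793315, and measured 23.5 RPKM in WT against 43.03 RPKM in MYOCD, a log2 change of 0.86 that 4.21% of the protein-coding genes exceeded. Its exons overlap those of HOOK2 on the opposite strand by 259 nt, or 14.2% of the exon length of JUNB. HOOK2 stood at 5.50 and 12.6 RPKM. The sources used here do not say whether counting used strand, so reads in the shared stretch cannot be told apart.

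JUND (chromosome 19, 18279760 to 18281622, minus strand), the member known for steady expression in resting cells, measured 29.9 RPKM in WT against 22.1 RPKM in MYOCD. Its log2 change was -0.43, and 14.04% of the protein-coding genes had a more negative one. JUN (chromosome 1, 58780788 to 58784327, minus strand), the founding partner of FOS, stood at 13.5 and 17.8 RPKM, a log2 change of 0.39 that 15.5% of them exceeded. JUN and JUND therefore lay on opposite sides of 0, both well under 2-fold.

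The leading member of each AP-1 family was a different gene in the 2 libraries. The 4 FOS genes summed to 73.6 RPKM in WT and 102.3 RPKM in MYOCD, and the 3 JUN genes to 66.9 and 82.9 RPKM, ratios of 1.39 and 1.24. Within the FOS family the share of FOSL1 was 51.8% in WT and 40.5% in MYOCD, and that of FOSL2 was 41.2% and 57.3%. FOS itself made up 6.34% of the family in WT and 0.996% in MYOCD. Within the JUN family the share of JUND was 44.8% and 26.7%, that of JUNB 35.1% and 51.9%, and that of JUN 20.1% and 21.5%. FOSL1 thus led the FOS family in WT and FOSL2 in MYOCD, and JUND led the JUN family in WT and JUNB in MYOCD. The level of JUNB was 0.783 times that of JUND in WT and 1.95 times in MYOCD. These shares are of RNA, each lead rests on 1 library, and protein was not measured.

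**Figure D2:**
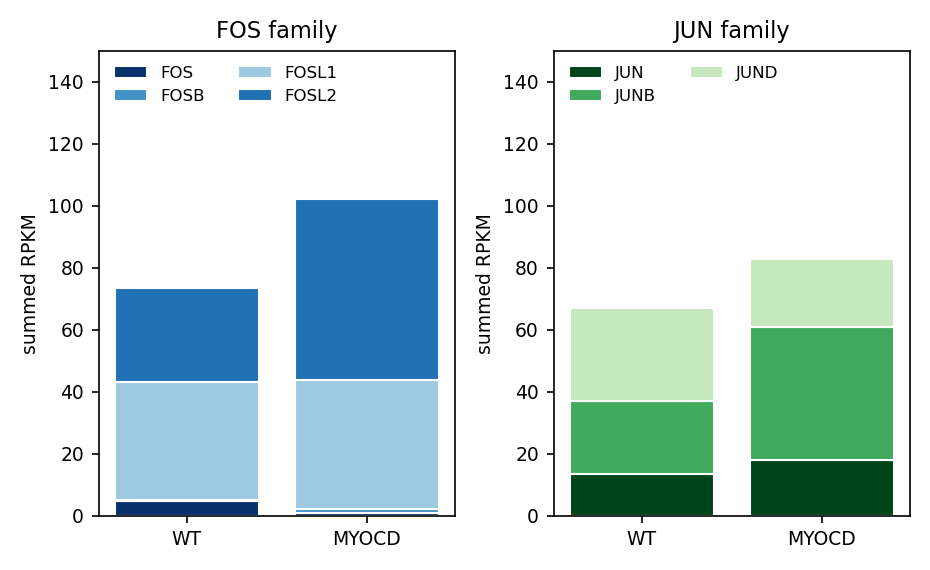
Stacked bars of summed RPKM from 0 for the 4 FOS genes (left) and the 3 JUN genes (right), 1 library a bar. FOSL2 measures 30.3 in WT and 58.6 in MYOCD, JUNB 23.5 and 43.03, and JUND 29.9 and 22.1.

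All 3 EGR genes were below 1 RPKM in both libraries. EGR1 (chromosome 5, 138465490 to 138469315, plus strand), the member that most tissues induce, measured 0.726 RPKM in WT against 0.929 RPKM in MYOCD, roughly 39.2 and 44.1 reads, with a log2 change of 0.22. EGR2 (chromosome 10, 62811996 to 62919900, minus strand), known for its role in myelinating Schwann cells, stood at 0.0209 and 0.0736 RPKM. Those values are worth roughly 1.33 and 4.11 reads, so the difference in EGR2 was not detectable at this depth. EGR3, on chromosome 8, stood at 0.0481 and 0.0593 RPKM, roughly 4.02 and 4.36 reads. The sum of the 3 was 0.795 RPKM in WT and 1.06 RPKM in MYOCD, and EGR1 made up 91.3% and 87.5% of it. The 2 promoters with CArG boxes printed above, those of EGR1 and EGR2, thus belong to genes under 1 RPKM in both libraries. CArG boxes farther from the start would have lain outside the searched windows. FOSL1 and EGR3 had no window, and the bases searched for JUN were exon sequence. The search therefore does not show that the other members lack CArG boxes.

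The order of levels in WT was FOSL1, FOSL2, JUND, JUNB, JUN, FOS, EGR1, FOSB, EGR3 and EGR2. In MYOCD it was FOSL2, JUNB, FOSL1, JUND, JUN, FOSB, FOS, EGR1, EGR2 and EGR3. Without replicates the order of neighbours was not resolved. Close ones included FOSL2 and JUND in WT, and in MYOCD JUNB and FOSL1, FOS and EGR1, and EGR2 and EGR3. The 5 genes above 10 RPKM (FOSL1, FOSL2, JUN, JUNB and JUND) were the same in both libraries.

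Of the 10 members 8 had a log2 change above 0 and 2 (FOS and JUND) below 0. At least 1 RPKM in a library was reached by 7, the AP-1 genes, and of these 0 were higher and 1 was lower by 2-fold or more (a log2 change of 1 in size), a threshold on size that involves no test. By the same rule 5.42% of the 17350 genes past the minimum were higher and 6.35% lower, or 3.02% and 3.1% of the protein-coding genes. Among protein-coding genes with a mean of 0.5 to 5 RPKM, the range in which FOS lies, 7.75% were lower by 2-fold. With 0.5 RPKM added, FOSL2, JUNB and FOSB lay just under 2-fold, although the deposited values of FOSB differed 2.67-fold. With 1.5-fold as the rule, chosen after these values were seen, 3 members were higher (FOSL2, JUNB and FOSB) and 1 was lower (FOS), against 8.52% and 8.89% of the protein-coding genes. FOSB counts there through the filter, since it passed only in the library where it was higher, and with a mean of at least 1 RPKM as the filter it is left out. With a mean of 5 to 50 RPKM, where FOSL2 and JUNB lie, 6.66% were higher by 1.5-fold, and with one of 0.5 to 5 RPKM, where FOSB lies, 16.7%. The median log2 change was 0.39 over the 7 and 0.18 over all 10, beside -0.00 over all genes past the minimum, and 0.26 over the 6 members with a mean of at least 1 RPKM. The members thus lay on both sides of 0, and the 3 without 1 RPKM in a library were the EGR genes.

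**Figure D3:**
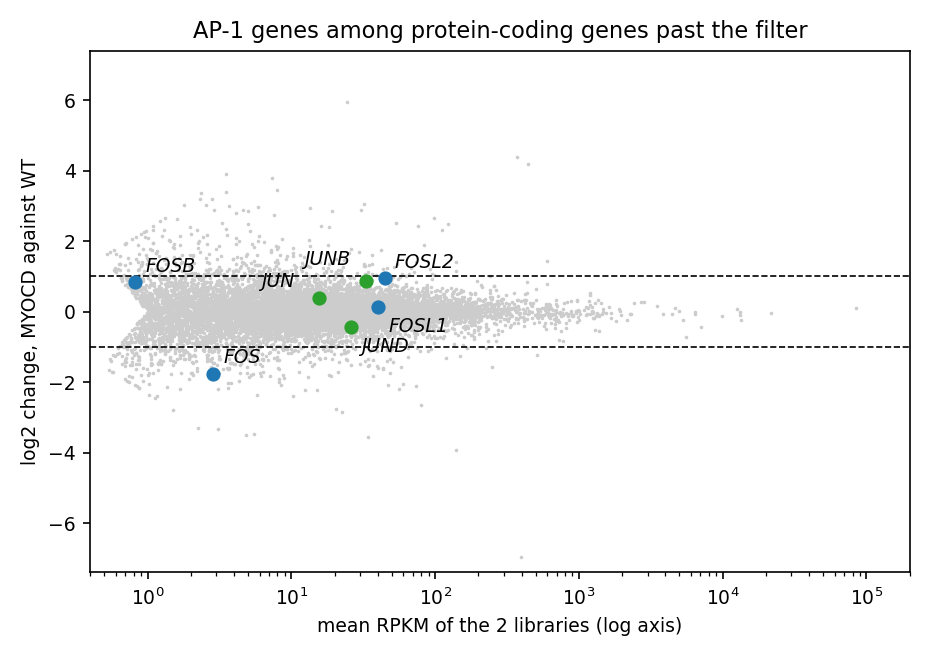
Log2 change (MYOCD against WT, 0.5 RPKM added) against the mean RPKM of both libraries on a log axis for 12337 protein-coding genes (grey) with the 7 AP-1 genes past 1 RPKM named (FOS genes blue, JUN genes green). FOS lies below the lower 2-fold line at -1.77, FOSL2, JUNB and FOSB lie just under the upper line, and JUN, FOSL1 and JUND lie within the grey mass.

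**Figure D4:**
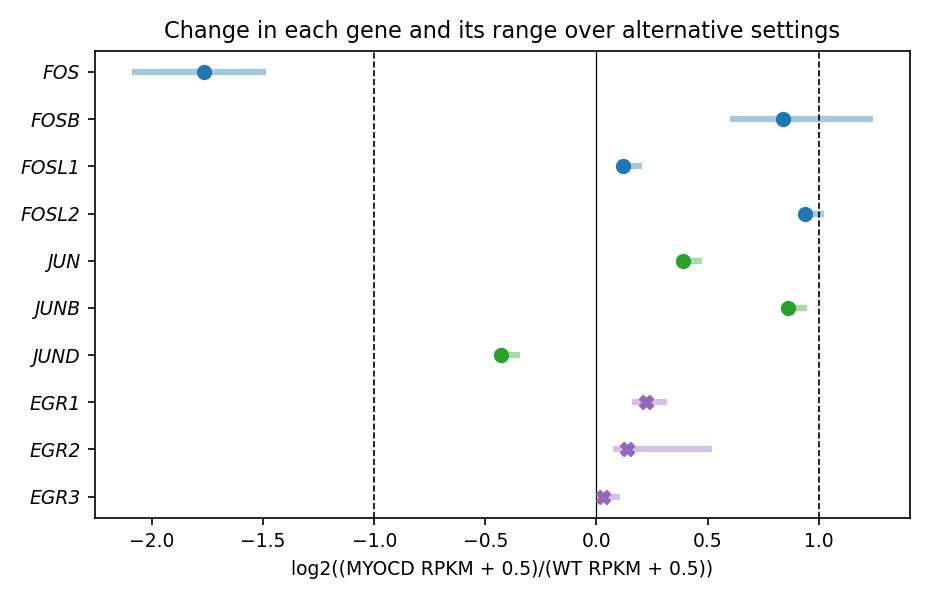
Log2 change of each of the 10 genes (circles, or crosses for genes under 1 RPKM in both libraries), with bars that span its lowest and highest value over 6 alternative settings of pseudocount, scaling and row choice; the bars are not replicate errors. Dashed lines mark 2-fold: FOS stays beyond it, and the bars of FOSB and FOSL2 cross it.

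Other immediate early genes also went both ways. Of 47 listed, 45 passed 1 RPKM, 1 was higher and 4 were lower by 2-fold, 24 were above 0 and 21 below, and the median was 0.01. That is 2.22% higher and 8.89% lower, beside 3.02% and 3.1% of the protein-coding genes. Among protein-coding genes with a mean of 0.5 to 5 RPKM, the range in which NR4A3 and ATF3 lie, 7.75% were lower. The 4 lower were NR4A3, an orphan nuclear receptor gene (4.44 RPKM in WT and 1.29 in MYOCD), ATF3, a stress-induced partner of JUN (6.13 and 2.14), the cyclooxygenase gene PTGS2 (17.8 and 6.99) and the matricellular gene CTGF (32.7 and 14.1). The 1 higher was ZFP36L1, whose protein speeds decay of AU-rich mRNAs, at 60.7 and 129 RPKM. DUSP1, a phosphatase that switches off MAP kinases, stood at 66.1 and 125 RPKM, just under 2-fold. PLK2, the most abundant of the list, stood at 149.98 and 160.8. The other NR4A genes, named after their values were seen, were NR4A1 at 27.3 and 17.5 RPKM and NR4A2 at 2.30 and 1.07.

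Among 16 genes of other leucine zipper factors that can pair with or compete with AP-1, 12 passed 1 RPKM, 0 were higher and 2 (16.7%, beside 3.1% of the protein-coding genes) were lower by 2-fold, and the median was -0.12. The 2 were ATF3, which is on both lists, and MAFK, a small MAF gene, with 67.7 RPKM in WT against 31.97 in MYOCD. ATF4, the most abundant, stood at 112 and 151 RPKM, and JDP2, an AP-1 repressor, at 17.5 and 16.4. Of the EGR relatives and corepressors, 3 of 4 passed and 0 were at or beyond 2-fold, beside 6.11% of the protein-coding genes in either direction. NAB1 stood at 21.5 and 21.6 RPKM, NAB2 at 4.12 and 4.86 and WT1 at 2.19 and 4.09.

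Genes of SRF and its cofactors, the MAP kinase pathway and JUN binding and turnover lay within 2-fold with 0.5 RPKM added. Over all protein-coding genes past the minimum, 6.11% were at or beyond 2-fold in either direction. At that share, lists of this size would hold few such genes. All 6 genes of SRF and its cofactors passed 1 RPKM, 0 were at or beyond 2-fold and 5 were above 0, with a median of 0.22. SRF measured 10.1 RPKM in WT against 11.2 in MYOCD, and the myocardin relative MKL1 25.3 against 34.3. Of the ternary complex factor genes, ELK3 stood at 20.8 and 31.9 RPKM, a ratio of 1.53, ELK1 at 17.2 and 18.5 and ELK4 at 15.9 and 13.6. Of 25 MAP kinase pathway genes 24 passed and 0 were at or beyond 2-fold, with a median of 0.10 and the kinase gene MAP2K2, the most abundant, at 101 and 99.3 RPKM. The kinase gene MAPK10, at 1.72 and 0.706 RPKM, was lower by 2-fold with 0.1 RPKM added. Of 7 genes whose proteins bind JUN proteins or control their turnover 0 were at or beyond 2-fold, with a median of -0.14 and the ubiquitin ligase gene ITCH at 53.5 and 43.4 RPKM and COPS5 at 45.8 and 41.5.

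Genes known as AP-1 targets had 1 member higher and 0 lower by 2-fold among 18 of 25 past 1 RPKM, with a median of 0.07. The 1 was the cytokine gene IL11, with 5.48 RPKM in WT against 31.3 in MYOCD. The hyaluronan receptor gene CD44, the most abundant by mean, stood at 199 and 285 RPKM. The collagenase and stromelysin genes MMP1, MMP3, MMP10 and MMP13 were all under 0.1 RPKM in both libraries. Genes known as EGR1 targets had 0 members higher and 2 lower among 13 of 15 past 1 RPKM, with a median of 0.06: PDGFB, a growth factor chain (5.13 and 1.17 RPKM), and ICAM1, an adhesion molecule (1.24 and 0.152). ICAM1 passed 1 RPKM only in WT, the library where it was higher, and is left out with a mean of at least 1 RPKM as the filter. The 2 make up 15.4% of the 13, beside 3.1% of the protein-coding genes. Both had a mean of 0.5 to 5 RPKM, a range in which 7.75% of the protein-coding genes were lower by 2-fold. Over the 8 related lists, 118 distinct genes passed, of which 2 (1.69%) were higher and 7 (5.93%) lower by 2-fold, beside 3.02% and 3.1% of the protein-coding genes, or 7.63% in either direction, beside 6.11%.

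**Figure D5:**
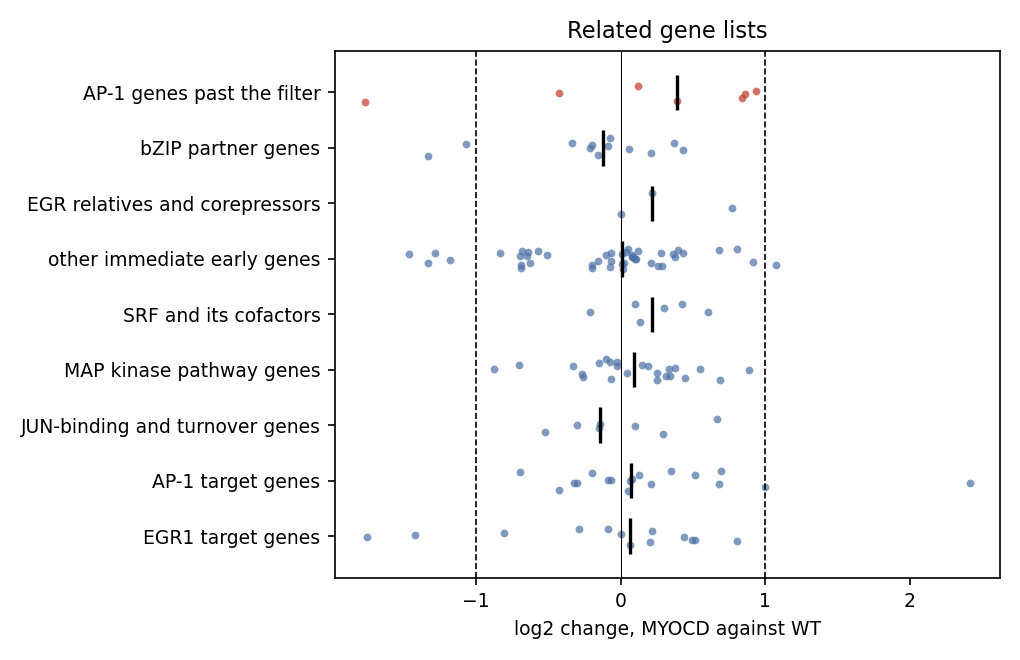
Log2 change (MYOCD against WT) of the 7 AP-1 genes past 1 RPKM (red) and of the genes past 1 RPKM in 8 related lists (blue), 1 point a gene, spread vertically for sight only; black bars are medians and dashed lines mark 2-fold. The medians lie between -0.14 and 0.39, and most genes lie inside the dashed lines.

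Genes of these lists with the change nearest to a member's rest on 1 difference between 2 libraries. Nearest to FOS (-1.77) were PDGFB (-1.75) and NR4A3 (-1.46). Nearest to JUN (0.39) were MYC (0.40), with 57.1 RPKM in WT against 75.2 in MYOCD, and MAPK14 (0.38), and nearest to EGR1 (0.22) were NAB2 (0.21) and MAFF (0.21).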

How the data were processed

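RNA of 1 WT and 1 MYOCD library was measured by sequencing after Trizol extraction and Illumina TruSeq library preparation, per the labels' protocols. The values are RPKM as the authors deposited them, per the file headers, and a key above the table defines each column. The submitters' processing notes name Bowtie 0.12.2 and the builds mm8 (mouse) and GRCh38.p12 without a role, and the counting tool, the annotation and the use of strand were not given in the sources used here. For symbols on several rows, none of them a member, the row with the highest mean was used. Gene positions and exon lengths came from GENCODE 29, which held 57375 of 57979 identifiers.

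The log2 change was log2((MYOCD + 0.5)/(WT + 0.5)), counted for genes of at least 1 RPKM in a library, and understates the change of low genes. To estimate depth, RPKM times length in kilobases was stacked for gene models with 1 transcript of 1500 to 8000 nt, and the peak was taken as 1 read; the result depends on those lengths. No count test was run. The functions were tested on simulated data.

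The named genes were all 10 members, MYOCD, list members at or beyond 2-fold (up to 8 a list), the 2 most abundant members of each list and the genes nearest in change to FOS, JUN and EGR1; WT1, JDP2, SRF, ELK1, ELK4, MAPK10, NR4A1, NR4A2, MMP1, MMP3, MMP10, MMP13, the markers named by level and HOOK2 were added after their values were seen. Some named genes are not reported here. Members and lists were chosen with earlier results of these data known. Protein sequences were not analysed here. Python 3.11.15, NumPy 2.4.6, pandas 2.3.3 and Matplotlib 3.10.9 were used.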

Additional observations from a re-analysis of the deposited data

How the results depend on the processing

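The alternatives were pseudocounts of 0.1 and 1 RPKM, 3 other filters, 3 other scalings, summed rows and, chosen after seeing the data, a 1.5-fold rule. All 10 members kept the sign of their log2 change under the 6 settings that apply to a single gene. The pseudocounts and summed rows could not change a sign, since both values received the same amount and each member is on 1 row. The 3 scalings moved the changes by at most about 0.09, so the kept signs do not measure how firm the directions are. FOS ranged from -2.09 to -1.49, JUNB from 0.85 to 0.95 and JUND from -0.44 to -0.34. FOSB passed 2-fold with a pseudocount of 0.1 (log2 change of 1.24), and FOSL2 with the steady reference genes at 0 (1.03), so that each of these settings had 1 member higher by 2-fold. With a mean of at least 1 RPKM as the filter, FOSB no longer passed, the median over the other 6 members was 0.26, and 6 related genes were lower, without ICAM1. With a pseudocount of 0.1, 9 related genes were lower, with NR4A2 and MAPK10 added. With a minimum of 5 RPKM, 0 members were lower, because FOS no longer passed. In the related lists 4 genes were higher with the steady reference genes at 0. With 1.5-fold, 3 of the 7 members past the filter were higher, and of 118 related genes 13 were higher and 19 lower. Over the protein-coding genes the shares at 1.5-fold were 8.52% higher and 8.89% lower. With the steady reference genes at 0 the log2 changes were higher by up to about 0.09, and the other scalings moved them by up to about -0.00 and 0.01. Low genes moved less because of the 0.5 RPKM added: with the steady reference genes at 0, FOS went from -1.77 to -1.71 and EGR3 from 0.03 to 0.04. No paired analysis was possible because each group has 1 library, and leaving out a library was not possible for the same reason. Depth limits EGR2 and EGR3, whose values are worth few reads.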
